A study of Mus musculus with 14 samples.

Results

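The Bcl-2 family was followed by 8 genes over arrays of mouse lymph node RNA taken before and after ionizing radiation (IR). The genes were Bcl2, Bcl2l1 and Mcl1, which restrain apoptosis, the pore-forming effectors Bax and Bak1, and the BH3-only activators and sensitizers Bcl2l11, Bid and Bad. Members were chosen by symbol, taking every probe set whose platform annotation gives 1 of these symbols alone. Of 12422 probe sets other than controls, 13 carried such a symbol, and they stood for 7 of the 8 genes. Bax matched no probe set by symbol and was not analysed here. Each gene had 1 to 3 probe sets, with 3 for Bcl2, 3 for Bcl2l11, 2 for Bcl2l1, 2 for Bad and 1 each for Bak1, Mcl1 and Bid.

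The study set animals with intact Atm (WT, Atm+/+) beside animals lacking it (KO, Atm-/-). Each genotype had 3 untreated arrays (replicates A, B and C), 2 arrays from 30 min after IR and 2 from 120 min after IR (replicates A and B), which gave 14 arrays in 6 groups. The sources used here do not give the strain, the age, the dose, how Atm was disrupted or whether RNA was pooled. Nothing in the labels says that replicates were separate animals, so p-values measure only the spread between these samples, which may be technical.

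Mitochondrial apoptosis is set by contacts among Bcl-2 family proteins. Bax and Bak1 permeabilize the outer mitochondrial membrane, which lets cytochrome c out to assemble the apoptosome. Bcl-2, Bcl-xL (the product of Bcl2l1) and Mcl-1 hold them in check, and BH3-only proteins such as Bim (the product of Bcl2l11), Bid and Bad bind and relieve that block. Lymphocytes are among the cells most easily killed by radiation, Atm is the kinase that signals DNA double-strand breaks to p53, and Bax is a classical p53 target in several tissues.

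Several properties of these arrays bear on every value below. The tissue label is lymph node, but salivary gland markers were very high on all 14 arrays. Each array's median over the 8 measured salivary genes was 5625 to 9552 in deposited intensity. For 12 B cell genes it was 72.6 to 160, for 14 T cell genes 32.95 to 85.65 and for 7 genes of node endothelium and stroma 44.2 to 76.9. No marker was at 0 on all arrays of a group. The 16 muscle markers summed to 3853 to 12250 on untreated KO arrays and to 1016 to 4076 on the other 11. All 15 of those tested were below 0 in KO at 30 min (median -0.81) and at 120 min (median -1.53), and none passed. In WT 13 of the 15 were above 0 at 30 min (median 0.17) and 14 at 120 min (median 0.68), and the KO response minus the WT response at 120 min was below 0 for all 15 (median -2.21), again with none passing. The part of muscle RNA in the values of either genotype below was not tested. Replicate A of KO 30 min stood apart, with a mean correlation of 0.908 with the other arrays against 0.925 to 0.949 for the rest. In bulk RNA, fewer cells of a type and less RNA per cell cannot be told apart.

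The sequence just upstream of Bcl2l11 is shown first, because its probe sets had the smallest p-values in the family and RefSeq lists 2 start sites for it. All 8 genes were found in the RefSeq promoter table (build GRCm38.p6), with 12 start sites in all, and the 250 bases before each were searched on both strands for 3 motifs. The forkhead motif TGTTTAC occurred in 1 of the 12 windows, the distal Bcl2l11 one, against 3.17% of 32851 windows of all genes. There it reads GTAAACA, from the other strand, and has its first base at -227 from the start site. The NF-kB motif, searched as a loose pattern of 10 bases of which 4 were left open, occurred only in the Bak1 window of the 12, against 17.6% of all windows, and the p53 decamer consensus, searched by name, only in the Bax window, against 7.13%. The 2 Bcl2l11 windows were 72% and 73.2% G or C, against a median of 52.4% over all windows. A match describes letters only. The windows run 5′ to 3′ on the plus strand, at chr2:128125788-128126037 for the distal start and chr2:128127325-128127574 for the proximal one, with capitals marking the motif match.
Bcl2l11 distal start: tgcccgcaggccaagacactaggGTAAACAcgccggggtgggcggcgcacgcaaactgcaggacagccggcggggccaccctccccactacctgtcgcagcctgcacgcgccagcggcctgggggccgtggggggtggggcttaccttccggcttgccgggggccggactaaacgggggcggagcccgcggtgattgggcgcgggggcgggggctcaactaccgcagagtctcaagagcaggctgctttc
Bcl2l11 proximal start: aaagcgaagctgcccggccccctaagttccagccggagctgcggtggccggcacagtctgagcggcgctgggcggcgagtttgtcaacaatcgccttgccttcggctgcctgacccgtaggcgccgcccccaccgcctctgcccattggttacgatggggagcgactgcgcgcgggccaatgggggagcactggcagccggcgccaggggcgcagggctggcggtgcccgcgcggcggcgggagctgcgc

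No Bcl-2 family probe set passed in any comparison tested. Values were taken as log2(value + 32), a scale that understates the change of low values. They were quantile normalized and tested with limma over 8938 probe sets that lay above their array's own 40th percentile on at least 2 arrays, with Benjamini-Hochberg adjustment. Changes are given ± the standard error of the fit, and a call means an adjusted p under 0.05. Of the 13 member probe sets, 11 entered the test. Bcl2l1 99026_at (2.3 to 19.4 in deposited intensity) and Bcl2l11 99419_g_at (4.3 to 45.8) lay above the percentile on no array and were left out. Of those tested, Bcl2 98868_at was above it on 2 arrays, Bid on 4, Bad 99670_at on 6, Bcl2 98870_at on 13 and the other 7 on all 14. The low sets can show little change on this scale.

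In a moderated F test of any difference among the 6 groups, 0 of the 11 member probe sets passed, against 0.28% of all tested. Without adjustment 2 of the 11 had a p under 0.05, against 8.01% of all tested, and both belonged to Bcl2l11. Its set 99418_at had F = 5.08 (adjusted p = 0.401 by limma) and 100988_at had F = 3.17 (adjusted p = 0.616). The next member was Bid, with an adjusted p of 0.684 by limma.

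**Figure D1:**
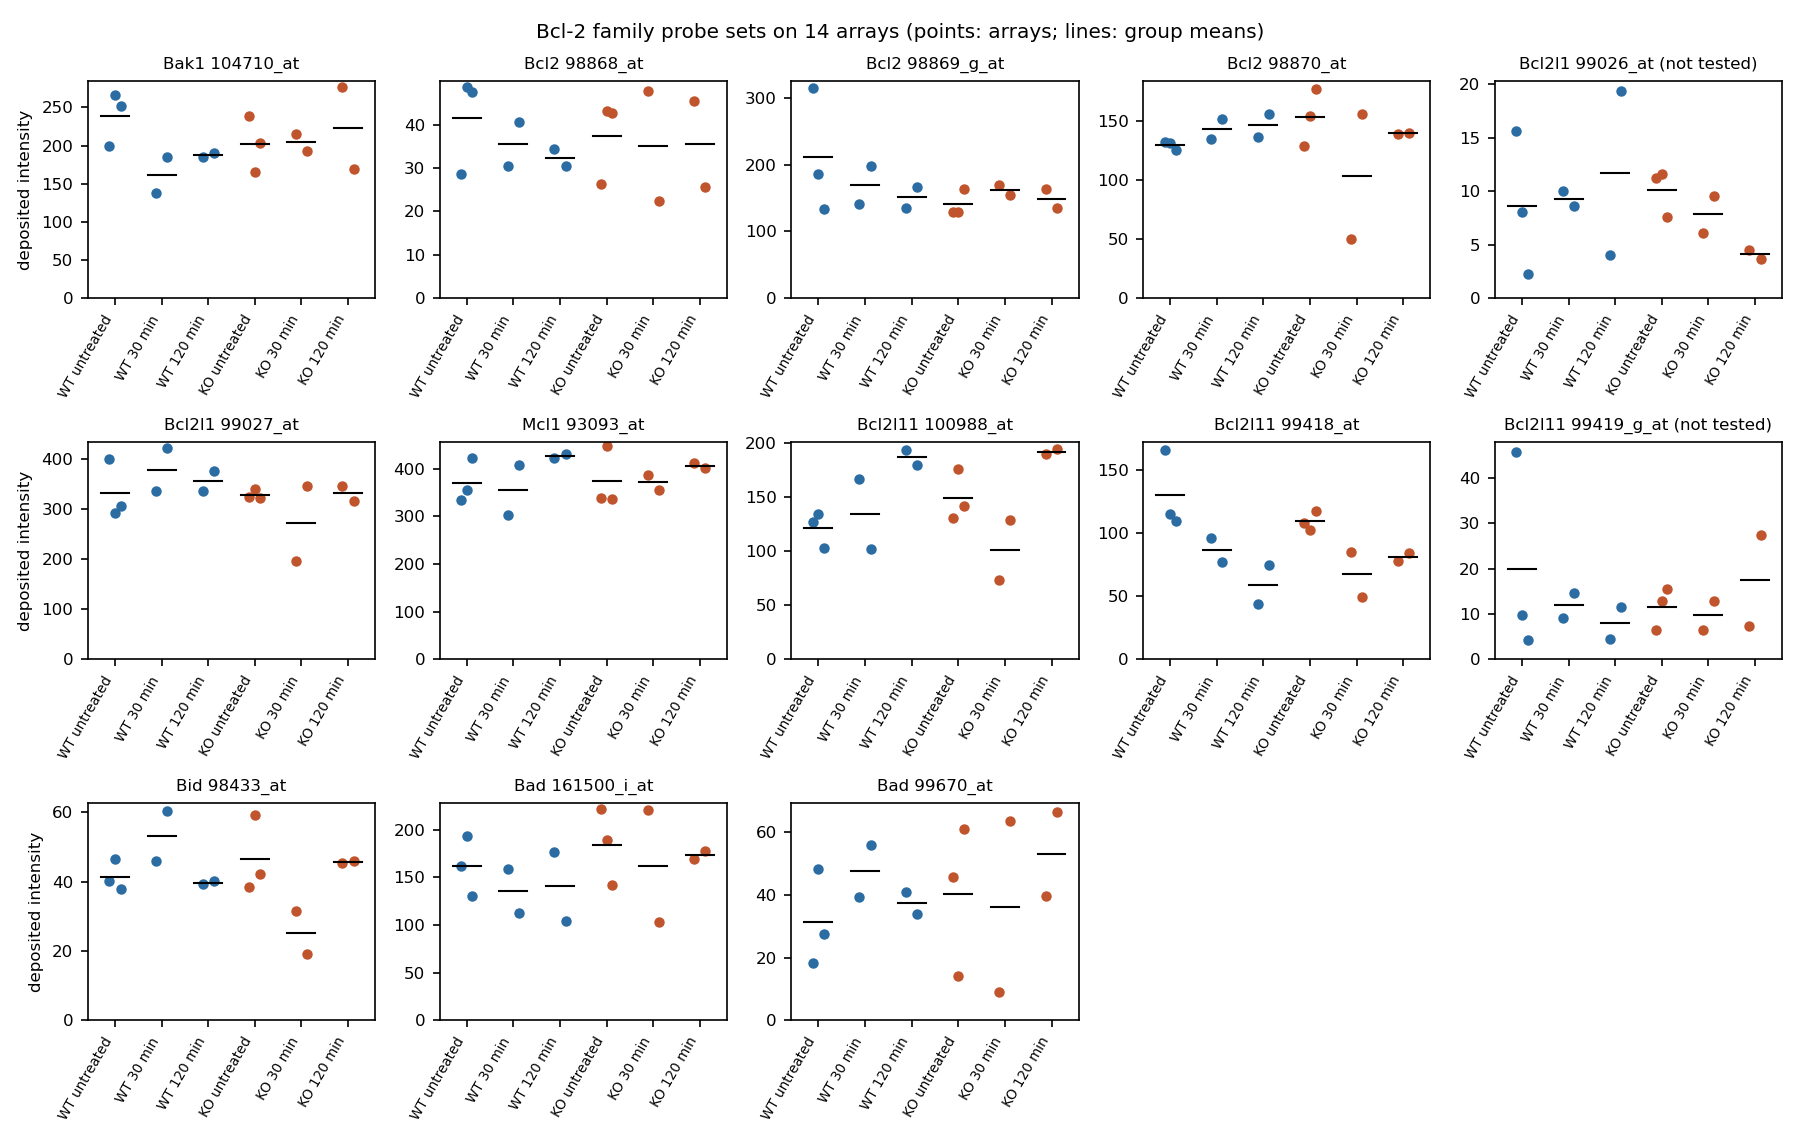
Deposited intensity (linear scale, each panel from 0) of the 13 probe sets of 7 Bcl-2 family genes, with a point for each of the 14 arrays and a line at each group mean, WT in blue and KO in orange. The Bcl2l11 set 99418_at is lower on every irradiated array than on every untreated array of the same genotype. In each single comparison of irradiated with untreated arrays, 9.88% to 13.7% of all tested probe sets were lower without overlap. The Mcl1 points lie between 303.7 and 447.9 in all 6 groups.

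Of the genes that restrain apoptosis, Mcl1, a short-lived guardian that sequesters Bak and Bim, showed no called change. Its single probe set read 334.4, 355.2 and 422.6 on the untreated WT arrays, 303.7 and 408.2 after 30 min and 422.7 and 430.3 after 120 min. Untreated KO arrays gave 337.7, 447.9 and 336.3, the 30 min arrays 386.8 and 355.9, and the 120 min arrays 411.6 and 401.7. Both 120 min groups had means above the others, 426.5 ± 5.37 in WT and 406.6 ± 7 in KO (SD, n = 2), but untreated arrays reached 422.6 in WT and 447.9 in KO. The change at 120 min was 0.16 ± 0.19 in WT (95% interval -0.24 to 0.56, adjusted p = 0.872 by limma) and 0.14 ± 0.19 in KO (-0.26 to 0.54, adjusted p = 0.912 by limma). The interval for WT thus runs from 0.847-fold to 1.48-fold.

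Bcl2l1, which encodes the long-lived survival protein Bcl-xL, was read by 99027_at. It stood at 399.1, 291.1 and 305.7 on the untreated WT arrays, 335.2 and 420.9 after 30 min, and 334.9 and 374.9 after 120 min. Untreated KO arrays gave 323.1, 339.5 and 321.8, those at 30 min 196.4 and 346.2, and those at 120 min 346.1 and 315.8. A single array, replicate A of KO 30 min, lay far below the other 13, which ranged from 291.1 upward. In KO at 30 min the change was -0.32 ± 0.22 with that array (adjusted p = 0.704 by limma) and 0.05 without it. At 120 min it was 0.08 ± 0.22 in WT (95% interval -0.39 to 0.56) and 0.02 ± 0.22 in KO (-0.45 to 0.50).

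The 3 probe sets of Bcl2, the founding survival gene of the family and an abundant product of mature lymphocytes, did not move together. Set 98870_at read 132.3, 131.2 and 125.6 on the untreated WT arrays, 135.0 and 151.6 after 30 min, and 136.5 and 156.1 after 120 min. Each irradiated WT group lay above the untreated one, as did 9.83% of all tested probe sets at 30 min and 13.3% at 120 min. The changes were only 0.13 ± 0.29 and 0.17 ± 0.29. In KO the same set read 128.8, 154.0 and 177.1, then 50 and 156.2 at 30 min, then 139.0 and 140.0 at 120 min. The value of 50 again belongs to replicate A of KO 30 min. With it the KO change at 30 min was -0.61 ± 0.29 (adjusted p = 0.597 by limma), and without it 0.07. With that array as the lone one at 30 min, when replicate B was left out, the change was -1.29 (adjusted p = 0.0207 by limma). KO minus WT in response at 30 min was then -1.42 (adjusted p = 0.0485). In these fits the lone array is assumed to vary like the other groups, and 240 of all tested probe sets were then called in KO at 30 min, against 0 with both arrays.

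The second Bcl2 set, 98869_g_at, was highest on untreated WT replicate A, at 315.1, beside 185.9 and 133.4 on the other untreated WT arrays. It read 141.3 and 197.6 in WT at 30 min, 135.1 and 166.8 at 120 min, and 129.3 to 169.9 over the 7 KO arrays. KO minus WT before IR was -0.45 ± 0.24 (adjusted p = 0.965 by limma), and the groups overlapped. With 1 array left out this difference ranged from -0.68 to -0.15, the latter without untreated WT replicate A. The third set, 98868_at, stayed between 22.4 and 48.6 on all 14 arrays, with an F of 0.105 and an adjusted p of 0.996 by limma.

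Bak1, the effector that sits in the outer mitochondrial membrane, was lower in irradiated WT arrays than in untreated ones. The deposited values were 200, 266.1 and 251.7 before IR, 137.9 and 184.6 after 30 min, and 185.4 and 190.1 after 120 min. All 4 irradiated WT arrays lay below all 3 untreated ones. Such a separation downward was found for 9.88% of all tested probe sets at 30 min and 13.6% at 120 min. Untreated KO arrays read 238.3, 165.9 and 203.2, those at 30 min 215.7 and 192.5, and those at 120 min 276.9 and 169.4, with overlap throughout. In WT the change at 30 min was -0.48 ± 0.22 (95% interval -0.95 to -0.01, adjusted p = 0.975 by limma) and at 120 min -0.29 ± 0.22 (adjusted p = 0.791). The KO change was 0.02 ± 0.22 at 30 min and 0.12 ± 0.22 at 120 min. The KO and WT responses differed by 0.50 ± 0.31 at 30 min (adjusted p = 0.868) and 0.40 ± 0.31 at 120 min (adjusted p = 0.883 by limma), so a difference between genotypes was not shown.

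Bcl2l11 encodes Bim, the BH3-only protein that engages all the survival members and removes lymphocytes in many settings. Neither of its 2 tested probe sets passed, and at 120 min their values differed from the untreated ones in opposite directions. Set 99418_at read 166.0, 115.6 and 110.0 on the untreated WT arrays, 95.9 and 77.2 after 30 min, and 44.0 and 74.5 after 120 min. Untreated KO arrays read 108.0, 102.9 and 117.4, those at 30 min 85.5 and 49.3, and those at 120 min 77.9 and 84.6. Within each genotype every irradiated array lay below every untreated one. In WT 9.88% of all tested probe sets were lower without overlap at 30 min and 13.6% at 120 min. In KO the shares were 11.3% and 13.7%. The share lower in every one of these comparisons was not computed. In order of group means the levels ran from WT untreated (130.5 ± 30.8, SD, n = 3) and KO untreated (109.4 ± 7.36, n = 3) through WT 30 min (86.55 ± 13.2, n = 2), KO 120 min (81.25 ± 4.74) and KO 30 min (67.4 ± 25.6) to WT 120 min (59.25 ± 21.6). No 2 neighbours in that order, other than KO untreated and WT 30 min, had ranges that did not overlap.

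The change of 99418_at in WT was -0.41 ± 0.19 at 30 min (adjusted p = 0.975) and -0.76 ± 0.19 at 120 min, or 0.590-fold with an interval of 0.442 to 0.786 (adjusted p = 0.159 by limma). In KO it was -0.54 ± 0.19 at 30 min (adjusted p = 0.48) and -0.32 ± 0.19 at 120 min (adjusted p = 0.765 by limma). Averaged over genotypes, a comparison added after seeing the data, the change was -0.48 ± 0.14 at 30 min (adjusted p = 0.456) and -0.54 ± 0.14 at 120 min (adjusted p = 0.202 by limma). None passed. The KO response differed from the WT response by 0.44 ± 0.27 at 120 min (adjusted p = 0.812 by limma).

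The other tested Bcl2l11 set, 100988_at, was higher at 120 min. It read 127.6, 134.7 and 102.7 on the untreated WT arrays and 194.1 and 180.0 at 120 min. The KO values were 130.6, 175.9 and 141.9 before IR and 189.8 and 194.7 at 120 min. In both genotypes the 120 min arrays lay above all untreated ones, as was found for 13.3% of all tested probe sets in WT and 13% in KO. At 30 min the values were 166.6 and 102.2 in WT and 73.1 and 129.1 in KO, where the 73.1 is again replicate A. The change at 120 min was 0.53 ± 0.24 in WT, or 1.44-fold with a 95% interval of 1.01-fold to 2.06-fold (adjusted p = 0.562 by limma). In KO the change at 120 min was 0.33 ± 0.24 (adjusted p = 0.807 by limma). In KO at 30 min it was -0.52 ± 0.24 with replicate A (adjusted p = 0.592 by limma) and -0.12 without it.

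The 2 sets were also set against each other within each array. The log2 value of 100988_at minus that of 99418_at was -0.34, 0.19 and -0.07 on the untreated WT arrays and 0.21, 0.65 and 0.21 on the untreated KO arrays. At 120 min it was 1.43 and 0.995 in WT and 1.02 and 0.99 in KO, so all 4 arrays at 120 min lay above all 6 untreated arrays. The mean change over the genotypes was 0.97, made of 1.29 in WT and 0.64 in KO. At 30 min the differences were 0.63 and 0.29 in WT and -0.17 and 0.94 in KO, overlapping the untreated range. This pair was chosen after its values were seen, so the difference is a description of these arrays, with no test. The third set, 99419_g_at, was at most 45.8 on any array and cannot settle which set follows the gene. The sources used here do not place the probes within the Bcl2l11 transcripts.

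**Figure D2:**
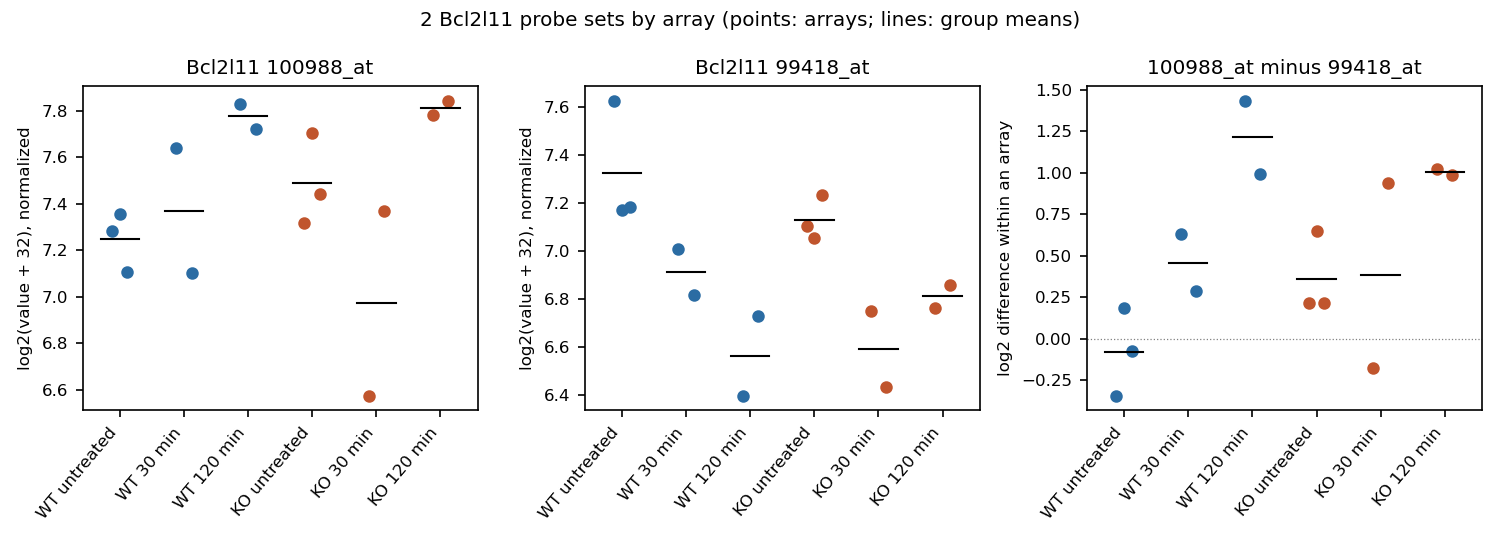
Normalized log2(value + 32) of the Bcl2l11 probe sets 100988_at (left) and 99418_at (middle) and their difference within each array (right), with a point per array and a line at each group mean, WT in blue and KO in orange. On the right the 4 arrays at 120 min lie between 0.99 and 1.43, above the 6 untreated arrays at -0.34 to 0.65.

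Lymphocyte marker levels on these arrays stand beside the Bcl2l11 values as follows. The per-array median of 12 B cell markers was 115.1 to 154.4 on untreated WT arrays and 72.6 to 80.45 at 120 min, and 11 of the 12 were below the untreated level. Their summed level was 4642 to 5416 and then 3147 to 3230, and 1 of them, Cd22, fell by 1.62 (adjusted p = 0.0053 by limma). In KO the median was 137.8 to 152.0 and then 130.8 to 160.0. The summed B cell level in KO was 2364 to 3978 before IR, below the untreated WT range, and 3027 to 3857 at 120 min. Averaged over the 3 conditions, 1 of the 12 B cell markers was called lower in KO than in WT by limma, while 9 were above 0. The T cell marker median was 66.55 to 71.2 and then 46.8 to 50 in WT, and 32.95 to 62.85 and then 58.8 to 85.65 in KO. Of the 12 tested markers of each type, none passed by limma in KO at 120 min or for the KO response minus the WT response there. For that difference of responses, 11 of the 12 B cell markers were above 0 (median 0.67). So were 10 of the 12 T cell markers (median 0.59), beside a median of -0.01 over all probe sets. The part of these shifts in the Bcl2l11 values was not tested.

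Bid, which caspase-8 cleaves to link death receptors to mitochondria, was at low values. It read 40.2, 46.5 and 37.8 on the untreated WT arrays, 46.0 and 60.5 after 30 min, and 39.2 and 40.1 after 120 min. Untreated KO arrays read 38.4, 59.2 and 42.3, those at 30 min 31.5 and 19.1, and those at 120 min 45.4 and 45.9. Both KO arrays at 30 min were below all untreated KO arrays, as was found for 11.3% of all tested probe sets. The low value of 19.1 is that of replicate B, not of the array that stood apart. The change was 0.25 ± 0.16 in WT (adjusted p = 0.98) and -0.44 ± 0.16 in KO (adjusted p = 0.512 by limma) at 30 min. The responses differed by -0.69 ± 0.23 (95% interval -1.20 to -0.19, adjusted p = 0.81 by limma), the smallest p of any member for that difference. At 120 min the change was 0.04 ± 0.16 in WT and 0.00 ± 0.16 in KO.

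Bad, a sensitizer that survival kinases hold inactive by phosphorylation, showed wide spread and no order by group. Set 161500_i_at read 162.5, 193.7 and 130.8 on the untreated WT arrays, 159.2 and 112.2 after 30 min, and 176.7 and 104.3 after 120 min. Its KO values ran from 103.0 to 221.7 over the 7 arrays. The groups overlapped in all 5 comparisons of 2 groups, and the change in WT at 120 min was -0.19 ± 0.27. Set 99670_at ranged from 8.9 to 66.2, and with it the interval at 120 min in WT was widest of all the members, -0.61 to 1.10.

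**Figure D3:**
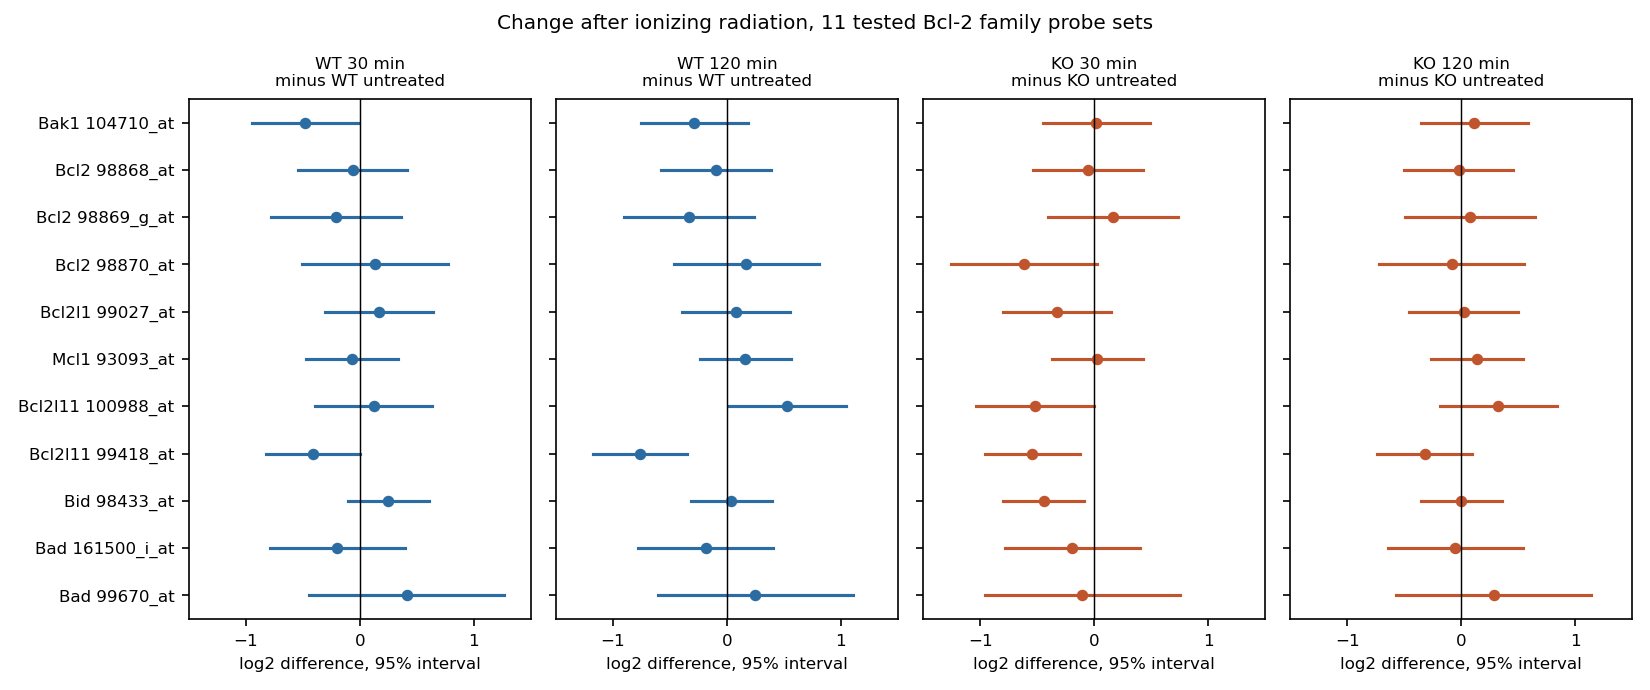
Log2 difference from the untreated arrays of the same genotype for the 11 tested probe sets, with the 95% interval of the limma fit, at 30 and 120 min in WT (blue) and KO (orange). The interval of Bcl2l11 99418_at in WT at 120 min, -1.18 to -0.35, lies farthest below 0, and no change passed after adjustment.

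Counts over the 11 tested member probe sets were set beside those over all tested probe sets. In WT at 30 min, 0 of 11 passed in limma, against 0.101% of all tested probe sets, and 1 of 11 (Bak1) had an unadjusted p under 0.05, against 5.02%. Of the 11, 5 were above 0 and 6 below, with a median of -0.06 beside 0.00 over all probe sets. The irradiated and untreated arrays did not overlap for 4 of the 11, against 19.7% of all tested. Of these, 2 were higher after IR (Bcl2 98870_at and Bid) against 9.83%, and 2 lower (Bak1 and Bcl2l11 99418_at) against 9.88%. Bid separated on the normalized scale only. In WT at 120 min, 0 of 11 passed against 0.515%, and 6 were above 0 and 5 below, with a median of 0.04. The groups did not overlap for 4 of 11, against 27% of all tested, with 2 higher (Bcl2 98870_at and Bcl2l11 100988_at) against 13.3% and 2 lower (Bak1 and Bcl2l11 99418_at) against 13.6%. In that comparison 2 of 11 had an unadjusted p under 0.05, against 8.66%. Both of the latter were Bcl2l11 sets, in opposite directions.

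In KO at 30 min 0 of 11 passed in limma, against 0% of all tested, while 3 of 11 had an unadjusted p under 0.05 against 8.38%. These 3 were the 2 Bcl2l11 sets and Bid, all lower than untreated. Of the 11, 8 were below 0, with a median of -0.19, while 48.6% of all tested were above 0. The groups did not overlap for 2 of 11 against 22.4%, with 0 higher against 11.1% and 2 lower against 11.3%. At 120 min 0 of 11 passed in limma, against 0% of all tested, and 0 had an unadjusted p under 0.05 against 7.22%. The median there was 0.02, with 7 of 11 above 0 against 49.6% of all tested. Groups did not overlap for 2 of 11 against 26.7%, with 1 higher against 13% and 1 lower against 13.7%. These were the 2 Bcl2l11 sets.

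Genotype made no called difference either. Before IR, 0 of 11 passed in limma, against 0% of all tested, 0 had an unadjusted p under 0.05 against 5.48%, and 0 had groups that did not overlap against 10.7% (5.56% higher and 5.09% lower). All 11 intervals of that difference lay within a 2-fold change in either direction. Averaged over the 3 conditions, KO minus WT had 0 of 11 passing in limma against 0.168% and 0 with an unadjusted p under 0.05 against 6.44%. Of the 11, 8 were below 0 (median -0.06), while 48.9% of all tested were above 0, and no interval reached beyond 1.46-fold. When the KO response was set against the WT response, 0 of 11 passed in limma at 30 min against 0.0783%, and 0 of 11 at 120 min against 0.134%. An unadjusted p under 0.05 was found for 1 of 11 (Bid) against 5.59% and for 0 against 6.99%. These comparisons share their untreated arrays. The response differences are also the least precise, with 4 of 11 intervals within 2-fold at 30 min and 6 of 11 at 120 min. Averaged over genotypes, 0 of 11 passed at 30 min against 0.0895% and 0 of 11 at 120 min against 0.213%. At 30 min 10 of the 11 were below 0 (median -0.10, beside -0.01 over all probe sets), while 48.2% of all tested were above 0. Most of these signs hung on single arrays. Leaving 1 out raised Bcl2 98869_g_at to as much as 0.13, Bcl2l1 to 0.11, Bcl2 98870_at to 0.10 and Mcl1 to 0.08. Bcl2 98868_at, Bad 161500_i_at and Bcl2l11 100988_at could also come to lie above 0. Bak1 and Bid stayed below 0, and Bcl2l11 99418_at stayed at -0.56 to -0.40. At 120 min 5 of the 11 were below 0 (median 0.02), while 49.1% of all tested were above 0. Unadjusted p-values under 0.05 numbered 1 against 8.18% and 2 against 9.08%, all for Bcl2l11, and all 11 intervals lay within 2-fold at either time.

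Other genes of the pathway were read from 3 lists chosen with earlier results known, each gene by its probe set of highest mean. Of the remaining Bcl-2 family, 7 of 16 listed genes had a probe set and 6 were tested. The BH3-only genes Bbc3 (Puma), Pmaip1 (Noxa) and Bmf and the Bcl2a1 genes matched no probe set by symbol and were not analysed here. In WT at 120 min 0 of 6 passed, with the smallest p for Bok, a Bax-like protein, at -0.42 ± 0.22 (adjusted p = 0.657), then Bcl2l2 at 0.24 ± 0.24 and Bcl2l10 at 0.40 ± 0.49. In KO at 120 min 0 of 6 passed and all 6 were below 0, led by Bcl2l13 at -0.60 ± 0.19 (adjusted p = 0.605 by limma), the BH3-only gene Bik at -0.88 ± 0.44 and Bok at -0.24 ± 0.22.

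Downstream of the mitochondrion, 11 of 14 genes of the apoptosome and caspases were tested. In WT at 120 min 0 of 11 passed, and the median was -0.03. Apaf1, the scaffold of the apoptosome, was at 0.47 ± 0.19 (adjusted p = 0.507 by limma), Xiap, which inhibits caspases, at 0.56 ± 0.25 and Diablo, which relieves that inhibition, at -0.62 ± 0.28. In KO at 120 min 0 of 11 passed, with Xiap at 0.48 ± 0.25 (adjusted p = 0.737), Dffa at -0.25 ± 0.17 and Cycs, which encodes cytochrome c, at -0.34 ± 0.25.

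The p53 targets outside the family held the only called genes of these 3 lists. Of 23 listed, 15 were tested, and in WT at 120 min 2 rose, 13 did not pass and 14 were above 0, with a median of 0.48 beside 0.00 over all probe sets. Cdkn1a, which encodes the cell cycle inhibitor p21, rose by 2.59 ± 0.26 (adjusted p = 0.00044 by limma), and another Cdkn1a probe set read 1.02 ± 0.28 (adjusted p = 0.231). Phlda3, an inhibitor of Akt, rose by 1.18 ± 0.23 (adjusted p = 0.043), and Plk2, a stress-induced kinase, was at 0.74 ± 0.17 (adjusted p = 0.114). In KO at 120 min 0 of 15 passed and the median was 0.15. Phlda3 was at 0.87 ± 0.23, Cdkn1a at 0.99 ± 0.26 (0.51 ± 0.28 by the other probe set) and Mdm2, the p53 antagonist, at 0.94 ± 0.34 (adjusted p = 0.646 by limma). In WT Mdm2 was at 1.07 ± 0.34 (adjusted p = 0.363 by limma). Comparing KO with WT responses at 120 min, 0 of 15 passed and 12 were below 0, with a median of -0.34. Cdkn1a was at -1.61 ± 0.37 (adjusted p = 0.218 by limma) by the first probe set and -0.51 ± 0.40 (adjusted p = 0.886) by the other. Phlda3 was at -0.30 ± 0.32 (adjusted p = 0.923 by limma) and Mdm2 at -0.13 ± 0.49 (adjusted p = 0.988). Before IR the first Cdkn1a set was 0.90 ± 0.23 higher in KO than in WT (adjusted p = 0.634 by limma). The other Cdkn1a set went the other way, at -0.28 ± 0.25 (adjusted p = 0.988 by limma), so the 2 sets disagree. In the average over genotypes at 120 min Cdkn1a (1.79 ± 0.18) and Phlda3 (1.03 ± 0.16) again rose, and in the remaining comparisons 0 genes of these 3 lists passed in limma.

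**Figure D4:**
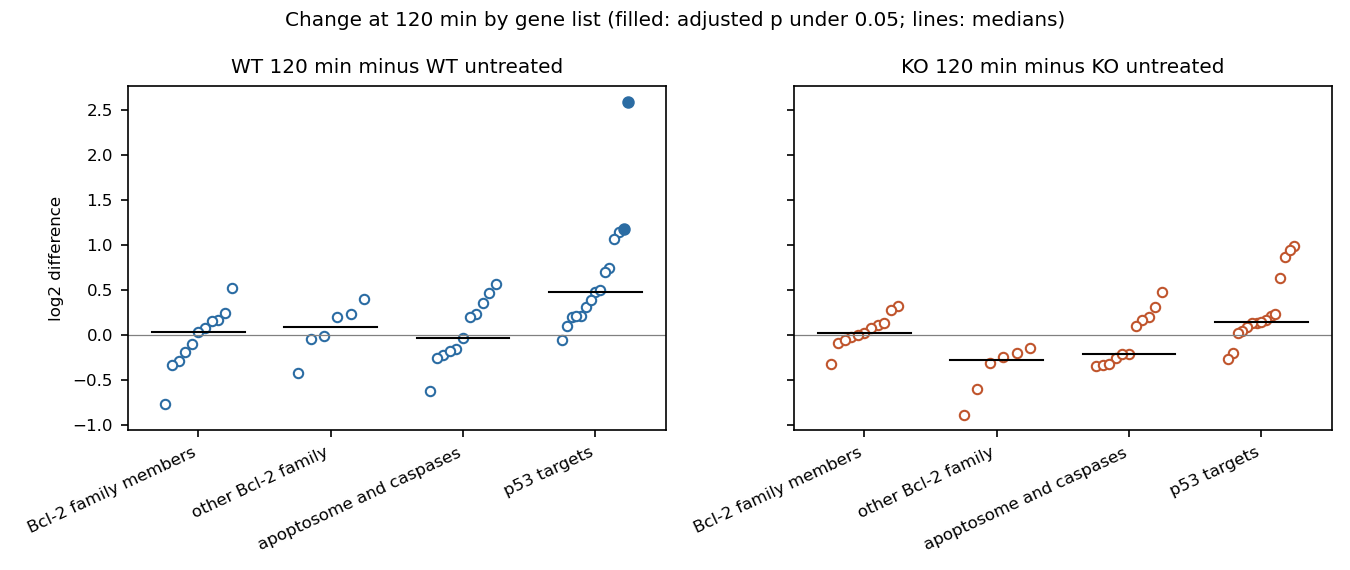
Log2 difference at 120 min from the untreated arrays of the same genotype for the 11 Bcl-2 family probe sets, 6 other family genes, 11 genes of the apoptosome and caspases and 15 p53 targets, in WT (left) and KO (right), with lines at the medians. Filled points passed, which are Cdkn1a at 2.59 and Phlda3 at 1.18 in WT.

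Since no member passed, likeness of pattern was measured for the member with the smallest F-test p, Bcl2l11 99418_at. The 6 group means of each probe set were centred on their own mean and compared by root mean square distance on the log2 scale. The 3 nearest genes among the tested probe sets were Zfp444 at 0.08, Foxd2 at 0.09 and Hinfp at 0.09, against a median distance of 0.32 over all named probe sets. Like Bcl2l11 99418_at (0.44 and -0.33), Zfp444 was highest in WT untreated at 0.48 and low in WT 120 min at -0.24. These distances rest on 6 means of 2 or 3 arrays each. The 3 genes were picked as the nearest of all, so their lying below the median distance was set by the choice.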

How the data were processed

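The authors deposited a linear intensity for every probe set on every array. The sources used here name no software or genome build. Each array's mean without its highest and lowest 2% was 150 to 150.3, so arrays had been scaled to a common level before deposit, as read from the values. Intensities of all 12488 probe sets were taken as log2(value + 32) and quantile normalized, the 66 controls were left out, and 8938 probe sets above their array's 40th percentile on at least 2 arrays were tested. Group means (6) were estimated jointly by limma 3.58.1 (R 4.3.3), with 8 residual and 4.56 prior degrees of freedom, and adjusted by Benjamini-Hochberg. The fit was tested on simulated data. The number of arrays limits the precision.

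Gene names came from the platform annotation, in which 10833 probe sets had 1 gene, 396 had several and 1193 of the 12422 had none. Named were all probe sets of the members, the called genes of 3 further lists and up to 3 with the smallest p in each comparison described, and 3 genes of like pattern. Members and lists were chosen with earlier results of these data known. Alternatives were no quantile normalization, offset 16, no filter, the groups compared alone, the replicate letter as a block and each array left out. Added after seeing the data were the leaving out of 3 arrays of lowest correlation and the averages over genotypes. A permutation test of the difference between 2 Bcl2l11 probe sets was also run, and its p is left out because the pair was chosen from the values it tests. No 2 arrays held identical values. Deviations of arrays with the same letter correlated at -0.121 to 0.0844, so the letters were not taken to pair the samples.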

Additional observations from a re-analysis of the deposited data

How the results depend on the processing

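The count of 0 Bcl-2 family calls held in 216 of 218 combinations of a comparison and an alternative. Both exceptions left out KO 30 min replicate B, which gave 1 call (Bcl2 98870_at) for KO at 30 min and 1 for the difference of responses at 30 min (range 0 to 1 over arrays left out). Of 2169 member values under alternatives, 2013 kept their sign without a call and 154 changed sign without a call, and 2 became called. Among all probe sets, the replicate block changed the calls from 46 to 25 in WT at 120 min, from 7 to 3 and from 12 to 5 for the differences of response at 30 and 120 min, from 8 to 2 and from 19 to 8 for the averages over genotypes, and from 25 to 13 in the F test. The letters share only a number. With only the groups compared the calls were 5 in WT at 30 min (9 with all groups), 21 in WT at 120 min, 3 for the difference at 30 min and 4 for the average at 30 min. Offset 16 gave 4 for the difference at 30 min and 11 for the average at 120 min. Without the 3 arrays of lowest correlation the calls were 9 for the genotype average (15 with all arrays), 0 and 5 for the differences of response, and 0 and 9 for the averages over genotypes, where 0 is limma's count.

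Leaving out each array in turn gave 13 to 44 calls in WT at 120 min, 0 to 240 in KO at 30 min, 0 to 11 in KO at 120 min and 0 to 7 between untreated genotypes. It gave 10 to 43 for the genotype average, 2 to 28 and 3 to 18 for the differences of response, 3 to 30 and 8 to 28 for the averages over genotypes, and 11 to 44 in the F test. The causes were not tested. The change at 120 min in the difference between the 2 Bcl2l11 probe sets ranged from 0.85 to 1.09 over 13 alternatives, all with the pair chosen from these values, so the range is no support for it. Signal near background limits Bid, Bcl2 98868_at and Bad 99670_at.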
